A study of Mus musculus with 4 samples.

Results

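The genes described here encode the CD28 and B7 costimulation system as T cells carry it, 8 genes in all: the ligands *Cd80* and *Cd86*, the receptors *Cd28*, *Ctla4* and *Icos*, the inhibitory ligand *Cd274* (PD-L1), and *Cd5* and *Cd6*, receptors that tune signals from the T cell receptor. They were matched by symbol among the 15981 genes listed in any table of the series. They were chosen by the value of *Cd80*, which was much lower in tumor-infiltrating Tc9 cells than in Tc1 cells, so the Tc9 to Tc1 difference of *Cd80* is described without a test. The other genes were put with it for their function, with earlier results of these data known.

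CD8+ T cells of Thy1.1+ Pmel-1 mice, with a transgenic receptor that recognizes a melanoma antigen, were cultured for 5 days. They were polarized for 3 days into Tc9 cells with IL-4, TGF-β and an antibody against IFN-γ, or into Tc1 cells with IL-2, and both were then kept in IL-2 for 2 days. The study describes priming with antibodies against CD3 and CD28, and with a peptide in some experiments, and does not say which was used for these libraries. The cells were injected into Thy1.2+ B6 mice that carried subcutaneous B16 melanomas of 10 days, and that had received cyclophosphamide the day before. Dendritic cells grown from bone marrow and loaded with peptide, which carry CD80 and CD86 themselves, and IL-2 were given after the T cells. The T cells were sorted from the tumors 14 days later, with C57BL/6 as the labelled strain and no age given. RNA was pooled into 2 samples per group. The study names 6 mice without saying whether these were per group or in all, so p-values measure the spread between pools, which may be partly technical.

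CD28 on a T cell binds CD80 and CD86 and adds a second signal to that of the T cell receptor, which favors IL-2 production, survival and glucose uptake. CTLA-4 binds the same ligands with higher affinity and restrains the response, and it can remove them from the surface of neighboring cells. CD80 and CD86 are best known from dendritic cells, macrophages and B cells, but activated T cells make them too, and CD80 also binds PD-L1 on the same cell. CD5 and CD6 are scavenger receptor family proteins of T cells that recruit both activating and inhibitory signaling proteins, and CD6 binds ALCAM.

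The deposited tables list genes by identifier and end at different points, so 6 of the 8 genes have values in 4 libraries, whereas *Icos* and *Cd274* have a value in Tc9 replicate 2 only. Library depth, estimated from counts and FPKM, was 31834276 and 31927162 fragments for the Tc1 libraries and 31105615 and 30822953 for the Tc9 libraries. At these depths a count of 3, used as the floor, was 0.0952 to 0.0956 CPM, the count relative to library depth after TMM scaling. *Cd8a* was at 19330 to 21622 counts in every library and *Cd4* at 45 to 58, so the sorted RNA carried the marker of the labelled CD8+ cell type. The Tc9 libraries differed from each other more than the Tc1 libraries did, with a chi-square per gene of 43.1 against 4.54.

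In the mouse genome (RefSeq, GRCm38.p6) the genes lie on 3 chromosomes. *Cd28* (chr1:60746388-60773359), *Ctla4* (chr1:60909025-60915832) and *Icos* (chr1:60960773-61000322) follow each other on the plus strand, separated by 135.665 kb and 44.94 kb. *Cd86* (chr16:36568956-36666158, minus strand) and *Cd80* (chr16:38457430-38495958, plus strand) share a chromosome at a distance of 1791.271 kb. *Cd5* (chr19:10718107-10739026) and *Cd6* (chr19:10789339-10830062) are neighbors on the minus strand, 50.312 kb apart, and *Cd274* (chr19:29362107-29388095, plus strand) is on the same chromosome. The pair of ligands, the chromosome 1 receptors and the *Cd5* and *Cd6* pair are the units in which the values are given.

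Promoter windows from 250 bases before to 50 bases after a RefSeq start were at hand for *Cd80*, *Ctla4*, *Cd5* and *Cd274*. Those of *Cd80*, which chose the genes, of *Cd5*, which was lower in Tc9 cells, and of *Ctla4*, which was not, are shown 5′ to 3′ on the strand of the gene. Capitals mark matches, on either strand, to GGGNNNNNCC, an outline of NF-kB sites, and to TGANTCA, an outline of AP-1 sites. NF-kB and AP-1 are transcription factors that CD28 signals activate.

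Cd80 promoter, chr16:38458683-38458982, plus strand: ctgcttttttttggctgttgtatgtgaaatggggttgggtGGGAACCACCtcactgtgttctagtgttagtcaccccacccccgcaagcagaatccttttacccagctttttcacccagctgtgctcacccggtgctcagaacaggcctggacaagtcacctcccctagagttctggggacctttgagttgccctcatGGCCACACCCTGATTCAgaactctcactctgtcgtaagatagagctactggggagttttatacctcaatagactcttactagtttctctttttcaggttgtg

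Cd5 promoter, chr19:10738925-10739224, minus strand: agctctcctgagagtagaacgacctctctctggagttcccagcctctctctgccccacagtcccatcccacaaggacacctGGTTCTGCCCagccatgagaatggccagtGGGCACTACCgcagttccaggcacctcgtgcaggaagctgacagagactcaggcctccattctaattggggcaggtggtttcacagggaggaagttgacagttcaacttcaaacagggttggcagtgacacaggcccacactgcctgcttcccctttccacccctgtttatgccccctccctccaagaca

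Ctla4 promoter, chr1:60908775-60909074, plus strand: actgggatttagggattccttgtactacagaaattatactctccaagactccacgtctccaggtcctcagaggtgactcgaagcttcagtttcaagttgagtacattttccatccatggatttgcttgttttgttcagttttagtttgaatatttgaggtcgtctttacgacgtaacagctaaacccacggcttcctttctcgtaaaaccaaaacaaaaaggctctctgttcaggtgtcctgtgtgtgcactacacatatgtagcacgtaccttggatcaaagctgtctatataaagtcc

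The *Cd80* window held the NF-kB letters at -210 and -52 and the AP-1 letters at -42, counted from the RefSeq start. The last 2 adjoin, so they appear as 1 run of capitals. The *Cd5* window held the NF-kB letters at -169 and -140, and the *Ctla4* window and the *Cd274* window, which is not printed, held neither. The letters TTCNNNGAA, for STAT proteins, was in none of the 4 windows. Of 32851 mouse promoter windows of the same length, 50.8% held the NF-kB letters, 7.81% the AP-1 letters and 8.30% the STAT letters, so the NF-kB match is common, and none of these matches is a measured site.

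The ligands had the lowest levels of the 6 genes with values in 4 libraries, and both were lower in Tc9 cells. *Cd80* had 1724 and 1699 counts in Tc1 replicates 1 and 2 against 175 and 152 in the Tc9 replicates. Both Tc1 libraries were high and close to each other, and both Tc9 libraries were low. In FPKM, fragments scaled by gene length and library size and so the unit in which genes can be compared with each other, *Cd80* was at 20.1 and 20.5 in Tc1 cells and at 1.89 and 1.71 in Tc9 cells. This is 10.4-fold lower in Tc9 cells by CPM, a log2 fold change of -3.38 with a standard error of 0.13, and the third lowest of the 1284 genes that were fitted over 4 libraries. It carries no p here because it chose the genes. Among the genes of the shared identifier range, *Cd80* stood at the 71st percentile of FPKM in either Tc1 library (71.3 and 71.4) and at percentiles of 35.0 and 33.8 in the Tc9 libraries.

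*Cd86*, the other ligand of CD28 and CTLA-4, was at a low level throughout. It had 41 and 37 counts in Tc1 replicates 1 and 2 against 16 and 11 in the Tc9 replicates, or 0.54, 0.48, 0.21 and 0.15 FPKM in that order. The groups did not overlap, and every library was above the floor of 3 counts. The log2 fold change was -1.52 with a standard error of 0.33 (adjusted p = 0.00688, edgeR quasi-likelihood test with Benjamini-Hochberg adjustment over all 1284 genes). On the log2(FPKM + 1) scale, where the pseudocount of 1 exceeds the level of the gene, the difference shrank to -0.36, with an adjusted p of 0.00586 in limma. The adjusted p was 0.000339 to 0.0476 over the alternatives with all libraries, and a minimum of 50 counts removed the gene.

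**Figure D1:**
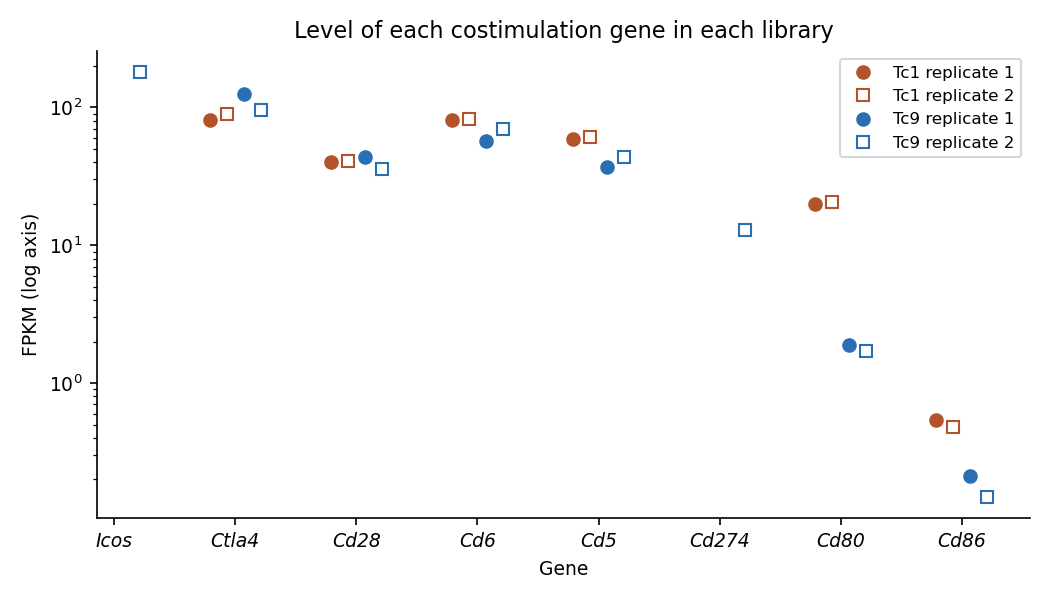
FPKM (log axis) of the 8 genes in each library, with Tc1 in orange, Tc9 in blue, filled circles for replicate 1 and open squares for replicate 2. *Cd80* fell from 20.1 and 20.5 FPKM in Tc1 libraries to 1.89 and 1.71 in Tc9 libraries, *Cd86* stayed under 0.6, and *Icos* and *Cd274* have a value in Tc9 replicate 2 only.

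The deposited gene length of *Cd80* also differed between the groups. The tables list 2 transcripts for it, NM_009855 and a transcript assembled by the sequencing provider, and give 1 mean length for the gene in each library. This length was 2837 and 2735 bases in the Tc1 libraries and 3113 and 3025 bases in the Tc9 libraries, a rise of 10.1%. The groups did not overlap, which was also the case for 51.2% of the 617 genes with several transcripts and at least 100 counts, but only 3.24% of those genes had a larger relative change. In the Tc9 libraries the *Cd80* lengths rest on 175 and 152 counts, near that minimum. The error of a length at such counts was not tested. In GENCODE M21 the transcript matched to NM_009855 has 1701 bases and the longest *Cd80* transcript has 3173, so every deposited mean lay between these. The mean lengths of *Ctla4* and *Cd6*, which also have several transcripts, moved by -0.0228% and 0.0438%. The promoter window printed for *Cd80*, from position 38458683, lies inside the RefSeq span of the gene, which begins at 38457430. The transcript to which the start in this window belongs is not stated here. The start of the assembled transcript is not known from the sources used here.

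Because length enters FPKM, *Cd80* was 11.3-fold lower in Tc9 cells by FPKM and 10.4-fold lower by CPM. The SD of log2 CPM between the 2 libraries of a group was 0.011 in Tc1 cells and 0.14 in Tc9 cells. Leaving out any 1 library gave log2 fold changes of -3.49 to -3.28, and the other alternatives gave -3.43 to -2.93.

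The receptors that bind these ligands were not lower in Tc9 cells when all libraries were used. *Cd28* had 5302 and 5503 counts in Tc1 replicates 1 and 2 against 5684 and 4594 in the Tc9 replicates. The Tc1 values lay between the Tc9 values, so the groups overlapped, and *Cd28* was the only 1 of the 6 genes for which they did. Its log2 fold change was -0.07 with a standard error of 0.13 (adjusted p = 0.70, edgeR), with 39.9 and 41.2 FPKM in Tc1 cells against 43.7 and 35.7 in Tc9 cells. The 2 Tc9 libraries stood on either side. Without Tc9 replicate 1 the fold change was -0.23 and passed the test (adjusted p = 0.000298, edgeR), and without Tc9 replicate 2 it was 0.081 (adjusted p = 0.267). It did not pass without either Tc1 library (adjusted p = 0.854 and 0.974, edgeR), nor under the alternatives with all libraries (0.699 to 0.871).

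*Ctla4*, the inhibitory receptor for the same ligands, had 4598 and 5109 counts in Tc1 cells and 6953 and 5324 in Tc9 cells. Both Tc9 libraries were above both Tc1 libraries, with replicate 2 of each group only a little apart. The log2 fold change was 0.34 with a standard error of 0.14 and did not pass the test (adjusted p = 0.0861, edgeR; 0.0552 to 0.222 over the alternatives with all libraries). When a Tc9 library was left out it did pass, at 0.14 without replicate 1 (adjusted p = 0.0366, edgeR) and 0.53 without replicate 2 (adjusted p = 2.05e-16). In these fits the spread comes from the Tc1 libraries alone. Without Tc1 replicate 1 or 2 it did not pass, at 0.26 and 0.43 (adjusted p = 0.556 and 0.303, edgeR). In FPKM *Ctla4* was at 80.6 and 89.5 in Tc1 cells and at 124.9 and 96.5 in Tc9 cells.

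Ratios within a library do not depend on library size. The *Ctla4* to *Cd28* ratio of FPKM was 2.02 and 2.17 in Tc1 cells and 2.86 and 2.70 in Tc9 cells, a log2 difference of 0.41 with a larger within-group SD of 0.073. The Tc9 libraries, which disagreed on each gene alone, were closer to each other in this ratio. The *Cd80* to *Cd28* ratio was 0.503 and 0.498 against 0.0432 and 0.0479, and that of *Cd80* to *Cd86* was 37.2 and 42.7 against 9.0 and 11.4. Both ratios hold *Cd80*, whose low value in Tc9 cells chose the genes, so their drop is no separate result. Per length, transcripts of *Cd80* outnumbered those of *Cd86* in every library, by a smaller factor in Tc9 cells. With 2 libraries a group an exact permutation test cannot go below p = 0.333, so no test of these ratios was made, and counts divided by length gave the same directions.

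**Figure D2:**
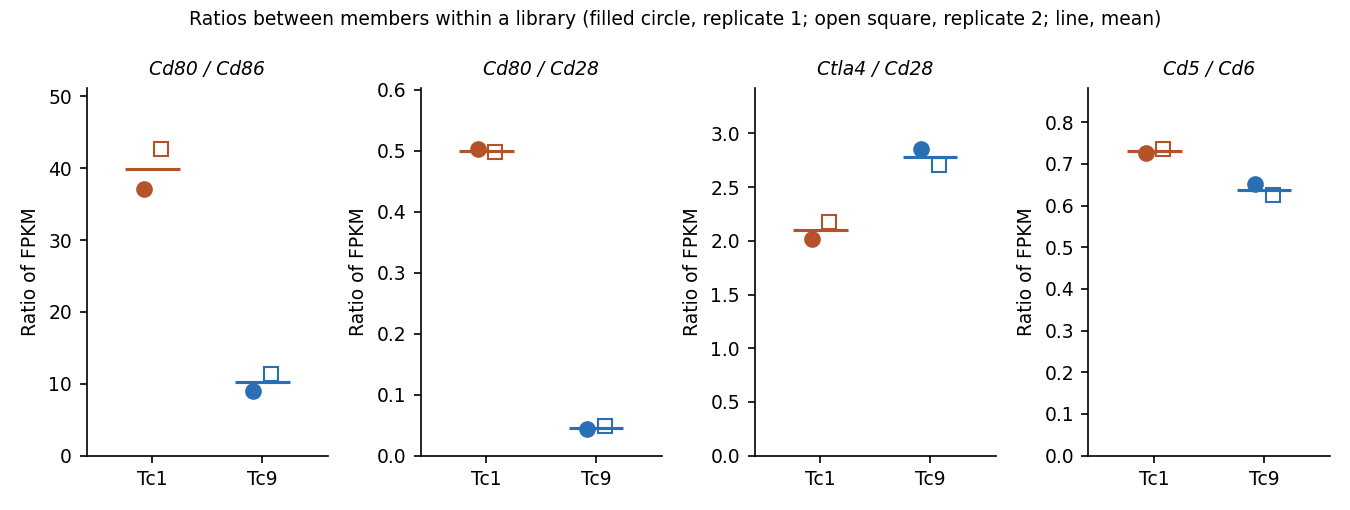
Ratios of FPKM between genes of the same library, with Tc1 in orange, Tc9 in blue, circles for replicate 1, squares for replicate 2 and lines for the group mean. Each axis starts at 0. The *Ctla4* to *Cd28* ratio was higher in both Tc9 libraries (2.86 and 2.70 against 2.02 and 2.17), and the ratios of *Cd80* to *Cd86* and to *Cd28* and of *Cd5* to *Cd6* were lower. *Cd80* chose the genes, so the drop of its ratios is no separate result.

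*Icos*, an inducible receptor of the CD28 family, and *Cd274*, the ligand of PD-1 that CD80 also binds, can be described in Tc9 replicate 2 alone. *Icos* had 17453 counts, or 180.8 FPKM, the highest of the 8 genes and at percentile 97.8 of all genes in that library. *Cd274* had 1386 counts, or 12.8 FPKM, at percentile 66.1. In the same library *Cd80* was at percentile 37.5 and *Cd86* at 17.8, so the PD-L1 transcript was more abundant per length than both CD28 ligands there. No comparison with Tc1 cells was made for *Icos* and *Cd274*.

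The order of levels in Tc9 replicate 2 was *Icos*, *Ctla4*, *Cd6*, *Cd5*, *Cd28*, *Cd274*, *Cd80* and *Cd86*. In the Tc1 libraries *Ctla4* (80.6 and 89.5 FPKM) and *Cd6* (81.0 and 82.9 FPKM) overlapped and had no clear order. In the Tc9 libraries *Cd5* (37.2 and 43.5 FPKM) and *Cd28* (43.7 and 35.7 FPKM) overlapped. *Ctla4* was above *Cd6* in both Tc9 libraries, at 124.9 and 96.5 against 57.1 and 69.6 FPKM.

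*Cd5* and *Cd6* were both lower in Tc9 cells, by less than the ligands. *Cd5* had 3617 and 3753 counts in Tc1 cells and 2233 and 2585 in Tc9 cells, and the groups did not overlap. Its log2 fold change was -0.61 with a standard error of 0.12 (adjusted p = 0.00397, edgeR; 9.68e-05 to 0.0352 over the alternatives with all libraries), which is 1.53-fold lower. *Cd6* had 6994 and 7191 counts in Tc1 cells and 4806 and 5849 in Tc9 cells, also without overlap. Its log2 fold change was -0.41 with a standard error of 0.12 (adjusted p = 0.0276, edgeR; 0.0156 to 0.0964 over the alternatives with all libraries). Both calls were lost when a Tc1 library was left out and the spread came from the Tc9 libraries alone, with adjusted p of 0.0639 and 0.125 for *Cd5* and 0.237 and 0.361 for *Cd6* without Tc1 replicate 1 and 2, while the fold changes stayed at -0.64 and -0.57 and at -0.44 and -0.38. Without a filter on low counts *Cd6* had an adjusted p of 0.0964.

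Whether the neighboring pair differed in fold change was not tested, and the log2 fold changes of -0.61 and -0.41 each had a standard error of 0.12. The *Cd5* to *Cd6* ratio of FPKM was 0.727 and 0.736 in Tc1 cells and 0.652 and 0.624 in Tc9 cells. The *Cd6* to *Cd28* ratio was 2.03 and 2.01 in Tc1 cells but 1.31 and 1.95 in Tc9 cells. Tc9 replicate 1 carried most of that difference, and Tc9 replicate 2 was only a little below the Tc1 libraries.

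Of the 5 genes other than *Cd80* that could be tested, 3 were lower in Tc9 cells (*Cd86*, *Cd5* and *Cd6*), 0 were higher and 2 did not pass the test (*Cd28* and *Ctla4*). Over all 1284 genes of the 4-library range, 214 or 16.7% were lower and 224 or 17.4% were higher by the same rule. The groups did not overlap for 5 of the 6 genes, *Cd80* included, against 70.4% of all genes, so a lack of overlap alone does not set these genes apart. The 5 genes had a median of -0.41 on the log2 scale, and all genes tested had a median of 0.0014. The genes were selected with results known, so these counts are a description.

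**Figure D3:**
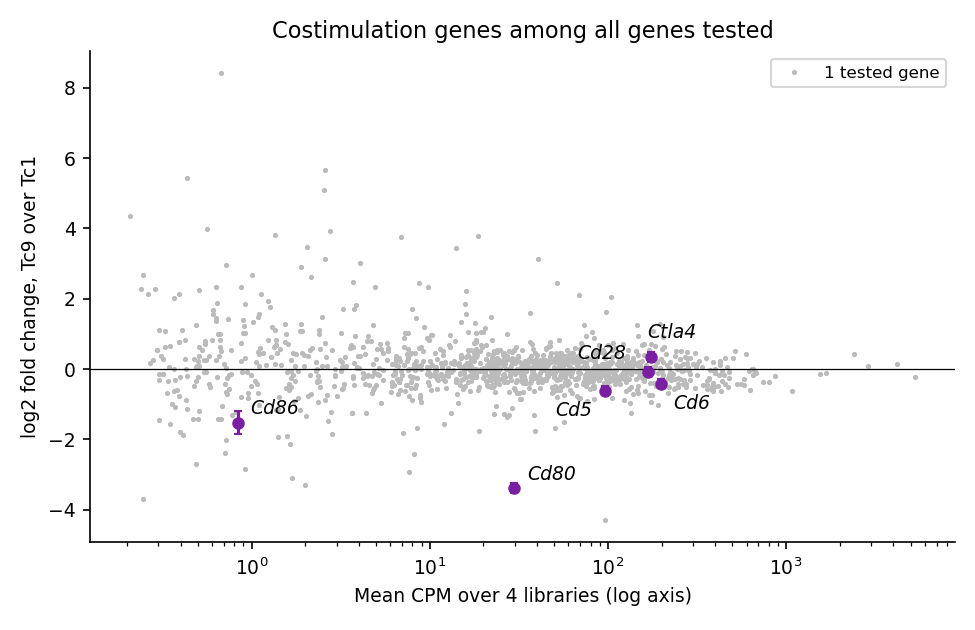
Log2 fold change of Tc9 over Tc1 against mean CPM over 4 libraries (log axis), with a gray point for each of the 1284 genes tested and purple points with standard errors for the 6 costimulation genes. *Cd80*, at -3.38, lies well under genes of similar level, and *Ctla4*, *Cd28*, *Cd6* and *Cd5* lie within 1 log2 unit of 0.

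**Figure D4:**
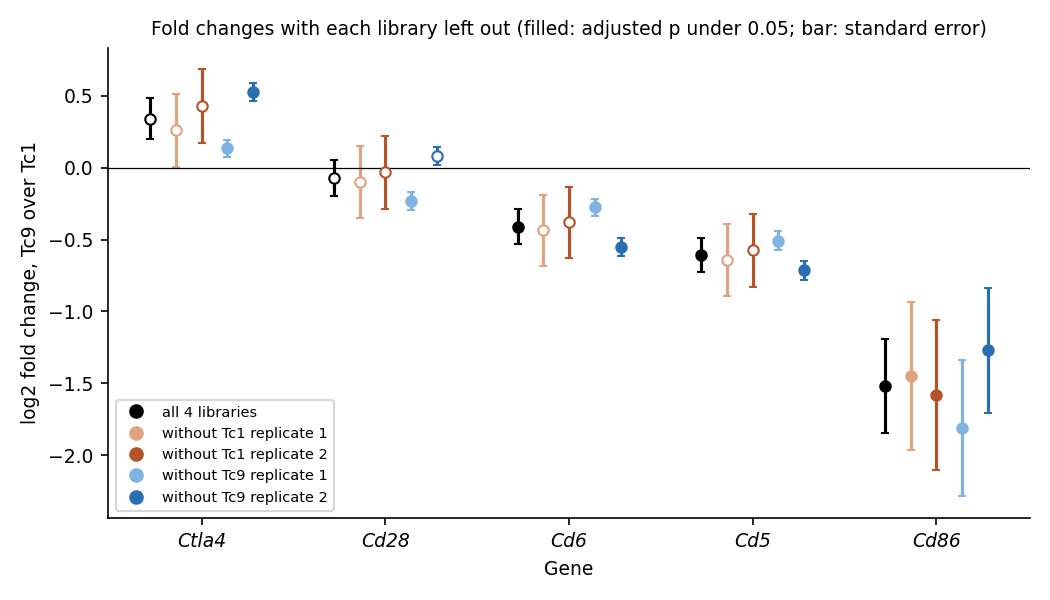
Log2 fold change with standard error for 5 genes with all 4 libraries (black) and with each library left out (colors); filled points passed an adjusted p of 0.05. *Cd86* passed in every fit, *Cd28* turned from -0.23 to 0.081 between the fits that leave out a Tc9 library, and *Cd5* and *Cd6* lost the call without either Tc1 library.

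Other genes of the B7 and CD28 family and its partners were followed with a list of 15. The 4-library range held 2 of them. *Alcam*, which encodes the CD6 ligand, had 1823 and 1880 counts in Tc1 cells against 1367 and 1115 for the Tc9 libraries. Its fold change on the log2 scale was -0.57, with a standard error of 0.13 (adjusted p = 0.0082, edgeR). *Alcam* was thus the 1 gene called of 2, beside 16.7% of all genes lower and 17.4% higher, so this call does not set the list apart. The *Alcam* call was lost without either Tc1 library and without a filter, with an adjusted p of up to 0.139, while the fold change stayed at -0.60 to -0.54. *Tigit*, an inhibitory receptor for nectin family ligands, had 1404 and 1423 counts against 1564 and 1949 and did not pass the test (0.32, adjusted p = 0.0897).

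For 6 more genes of this list there was 1 library in each group, replicate 2, which gives a ratio with a 95% Wilson interval for counting error and no replicate check. A total of 5 had at least 10 counts in a library, and 1 of these, *Nectin2*, a ligand of TIGIT and CD226, was past 2-fold, at 13 counts in Tc1 cells and 56 in Tc9 cells (log2 ratio 2.11, interval 1.25 to 2.97). Of all 3625 genes compared in this way, 4.77% were more than 2-fold lower in Tc9 replicate 2 and 10.3% more than 2-fold higher. *Pdcd1*, which encodes the PD-L1 receptor PD-1 and was singled out after its value was seen, had 517 counts in Tc1 cells and 262 in Tc9 cells (log2 ratio -0.98, interval -1.19 to -0.77). A further 6 genes had a value in Tc9 replicate 2 only, among them *Icosl*, the ICOS ligand, with 13 counts beside 17453 for *Icos*, and *Pdcd1lg2*, the other PD-1 ligand, at 10.6 FPKM beside 12.8 for *Cd274*. These were also chosen after their values were seen, and 1 gene of the list was in no table.

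Genes that carry the CD28 signal inside the cell, from PI3K and AKT to the NF-kB and NFAT proteins, did not pass the test in either direction with all libraries. Of a list of 49, 0 of 5 tested over 4 libraries were called by edgeR, beside 17.4% higher and 16.7% lower over all genes, with log2 fold changes of -0.29 to 0.26, 1 unadjusted p under 0.05 and 0 calls by DESeq2 and by limma. Leaving out Tc9 replicate 1 gave 3 higher and 2 lower genes and leaving out Tc9 replicate 2 gave 2 lower genes. The same fits called 424 higher and 430 lower and 372 higher and 372 lower over all genes. A further 9 genes, the kinases *Lck* and *Fyn* among them, were reached by 3 libraries (Tc1 replicate 2 and both Tc9 libraries), where the lone Tc1 library is assumed to vary as the Tc9 libraries do. There edgeR also called 0 of 9, with 0 at an unadjusted p under 0.05 and 0 by DESeq2 and limma, and log2 fold changes of -0.11 to 0.46. Over all 1305 genes of that range 3.22% were lower and 8.89% higher, and their median log2 fold change was 0.11. In the replicate 2 libraries 28 genes could be compared and 0 passed 2-fold, beside 10.3% higher and 4.77% lower over all genes compared, with log2 ratios of -0.75 to 0.75. The remaining 7 had no comparison.

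Genes that act below CTLA-4, CD5 and CD6 as restraints were followed with a list of 22. *Cbl*, a ubiquitin ligase that binds CD5 and limits receptor signaling, was the 1 gene called of 3 over 4 libraries, beside 17.4% of all genes higher and 16.7% lower. It had 6680 and 6595 counts in Tc1 cells and 9656 and 9324 in Tc9 cells (log2 fold change 0.52 with a standard error of 0.10, adjusted p = 0.00408, edgeR). The *Cbl* call was lost without either Tc1 library, with an adjusted p of up to 0.165, while the fold change stayed at 0.52. *Dok2*, an adaptor that recruits a Ras inhibitor, was the 1 of 7 past the threshold over 3 libraries, beside 8.89% of all genes higher and 3.22% lower, with 1236 counts in the lone Tc1 library against 3371 and 4022 in Tc9 cells (1.58 with a standard error of 0.24, adjusted p = 0.0219, edgeR). The spread of *Dok2* between Tc1 libraries is not measured in this fit, and its call was lost without a filter on low counts (adjusted p = 0.178). The other 2 and 6 genes had log2 fold changes of -0.28 to -0.03 and of -0.60 to 0.32. In the replicate 2 libraries 0 of 5 genes were past 2-fold (10.3% higher and 4.77% lower over all genes compared), with log2 ratios of -0.62 to 0.24. The list thus held genes with higher and with lower values in Tc9 cells.

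Genes known to respond to CD28 costimulation were followed with a list of 20. Of 8 tested over 4 libraries, 1 was higher and 2 were lower, beside 17.4% higher and 16.7% lower over all genes, so the list is not set apart by its calls. *Cd69*, an early activation marker, had 1232 and 1108 counts in Tc1 cells and 511 and 449 in Tc9 cells and was lower (log2 fold change -1.28 with a standard error of 0.13, adjusted p = 6.2e-05, edgeR). *Ccnd2*, a cyclin of the G1 phase, was lower too, at 40974 and 41958 against 28628 and 24703 counts (-0.63 with a standard error of 0.11, adjusted p = 0.00178). *Cdk6*, a kinase that cyclin D2 activates, was higher, at 16056 and 15739 against 21502 and 21307 counts (0.43 with a standard error of 0.096, adjusted p = 0.0076). The *Cdk6* call was lost without either Tc1 library, with an adjusted p of up to 0.207 and fold changes of 0.44 and 0.43, whereas those of *Cd69* and *Ccnd2* held in every fit that left out a library. The 5 that did not pass, among them the survival genes *Bcl2* and *Bcl2l1*, had log2 fold changes of -0.17 to 0.23.

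Over 3 libraries, 3 genes of the same list were fitted, with 1 Tc1 library, so that the spread between Tc1 libraries is not measured and the p-values rest on that of the Tc9 libraries. The test was passed by 1 higher and 1 lower gene, beside 8.89% higher and 3.22% lower over all genes of that range. *Ifng*, whose product marks Tc1 cells, had 15303 counts in the lone Tc1 library against 5097 and 4700 in Tc9 cells (log2 fold change -1.64 with a standard error of 0.20, adjusted p = 0.0134, edgeR). *Irf4*, a transcription factor of activated T cells, had 18150 counts in the lone Tc1 library against 44730 and 42747 in Tc9 cells (1.27 with a standard error of 0.21, adjusted p = 0.0248). *Il2ra*, the high-affinity IL-2 receptor chain, had 46793 against 74240 and 68904 counts and did not pass (0.61, adjusted p = 0.120). Both calls were lost without a filter on low counts (adjusted p = 0.165), where edgeR called 0 of 1784 genes with 348 at an unadjusted p under 0.05. *Il2* itself, the classical CD28 target, had 2 counts in Tc1 replicate 2 and 0 in both Tc9 libraries, at or under the floor of 3 counts, so no fold is given. Of 6 genes compared in the replicate 2 libraries, *Tnfrsf4* (OX40, a costimulatory receptor) rose past 2-fold, from 1798 to 8019 counts (log2 ratio 2.16, interval 2.08 to 2.23), and *Cd40lg* (CD40 ligand) was past it in the other direction at 11 and 2 counts (-2.46, interval -4.47 to -0.45), beside 10.3% and 4.77% of all genes compared. *Cd40lg* met the minimum of 10 counts only through Tc1 replicate 2, where it was high, so no difference is read from its ratio.

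**Figure D5:**
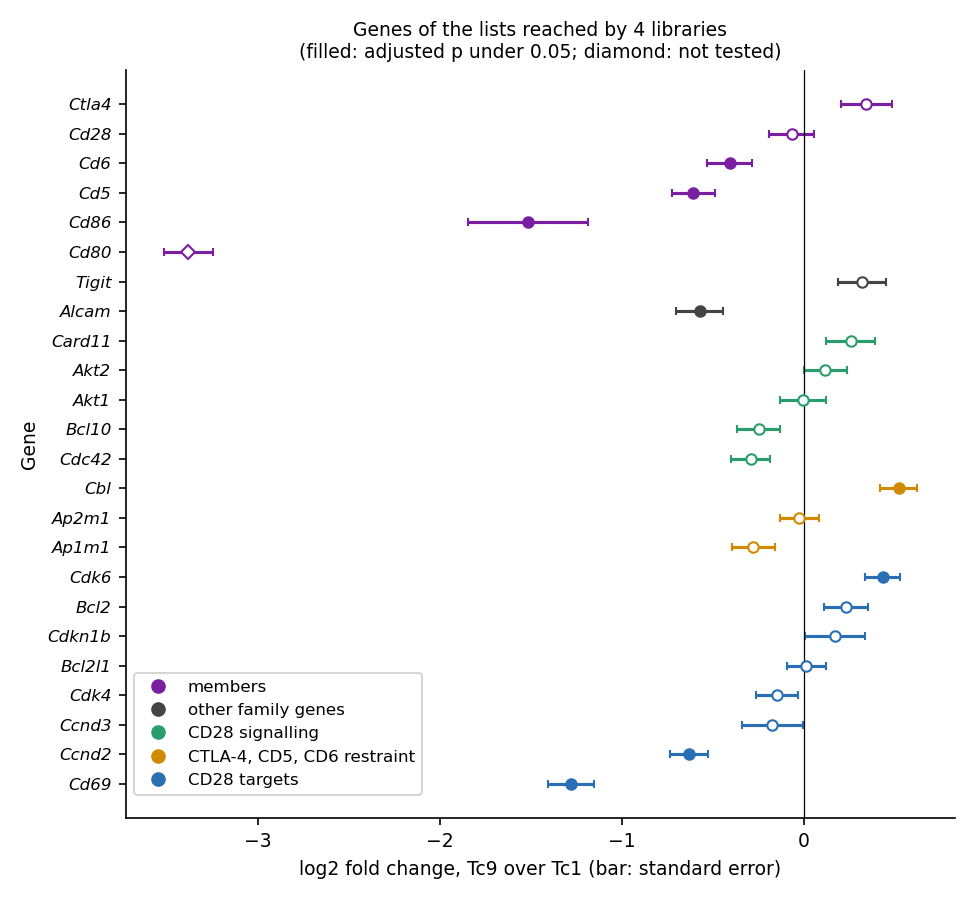
Log2 fold change of Tc9 over Tc1 with standard error for the listed genes with values in 4 libraries, colored by list; filled points passed an adjusted p of 0.05 and the diamond is *Cd80*, which was not tested. *Cd80* (-3.38), *Cd86* (-1.52) and *Cd69* (-1.28) are the lowest, and the 5 CD28 signalling genes lie between -0.29 and 0.26 with none filled.

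CD80 and CD86 are abundant on myeloid cells and B cells, so the markers of these cells were read beside the ligands. In bulk RNA, fewer cells of a type and less RNA per cell cannot be told apart. Of 23 myeloid and dendritic cell markers, 5 lay in the 4-library range, with a summed level of 7.42 and 7.29 CPM in the Tc1 libraries and 11.7 and 14.3 CPM in the Tc9 libraries. Most of it was *Cd68*, at 226 and 221 counts against 358 and 439 (log2 fold change 0.84, adjusted p = 0.00295, edgeR). Several macrophage markers were at or near 0, as *Cd14* had 1 count in each library, *C1qa* and *C1qb* 0 or 1, and *Lyz2* 0, 3 and 0 in the 3 libraries that reach it. The 11 markers of the 3-library range summed to 50.8 CPM in Tc1 replicate 2 and to 84.8 and 108.3 CPM in Tc9 cells, of which *H2-Ab1* gave 532, 1785 and 2314 counts. In the same order *Itgax* (CD11c, a dendritic cell marker) had 154, 171 and 188 counts, *Cd74* had 836, 663 and 833 counts, *H2-Aa* 22, 8 and 15, *Itgam* 12, 9 and 2 and *Flt3* 6, 0 and 3. The list thus held genes with higher and with lower values in Tc9 cells. Among the other 7 markers, 2 were reached by the replicate 2 libraries, of which *Xcr1*, a dendritic cell marker, had 15.1 counts in Tc1 and 33 in Tc9 cells (log2 ratio 1.14, interval 0.27 to 2.01), 1 by Tc9 replicate 2 and 4 by no table. The 5 B cell markers of the 4-library range summed to 0.952 and 0.733 CPM in Tc1 cells and to 0.924 and 0.542 CPM in Tc9 cells. The 2 of the 3-library range, *Cd79b* and *Ebf1*, summed to 6.66 CPM in Tc1 replicate 2 and to 13.8 and 16.5 CPM in Tc9 cells. *Cd79b* had 155 counts against 380 and 473, and *Ebf1* 54 against 52 and 44. In these libraries *Cd80* was at 54.1 CPM and at 5.58 and 4.84 CPM, and *Cd86* at 1.18 CPM and at 0.510 and 0.351 CPM. The part of these cells in the ligand values was not tested.

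CTLA-4 and ICOS are abundant in regulatory T cells, so the markers of CD4+ and regulatory T cells were read beside *Ctla4* and *Icos*. *Cd4* had 50 and 45 counts in Tc1 cells and 56 and 58 in Tc9 cells (adjusted p = 0.406, edgeR), and *Zbtb7b* 283 and 258 counts in the replicate 2 libraries. *Foxp3*, the regulatory T cell factor that TGF-β can also induce in other T cells, had 34.6 counts in Tc1 replicate 2 and 1592 in Tc9 replicate 2 (log2 ratio 5.51, interval 5.03 to 5.99). Its part in the level of *Ctla4* or *Icos* was not tested.

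The 5 genes whose values over the 4 libraries were most like those of *Cd80*, by Euclidean distance between log2 CPM centered on the mean of each gene, were *Isg15* (distance of 0.522), *Cd36* (0.715), *Il1rl2* (0.780), *Ly6c2* (0.936) and *Cxcr5* (1.15). *Isg15*, an interferon-induced ubiquitin-like protein, had 414 and 439 counts in Tc1 cells and 57 and 55 in Tc9 cells. *Ly6c2*, a surface antigen of effector and memory CD8+ T cells, had 5847 and 5648 counts in Tc1 cells and 285 and 300 in Tc9 cells, but it has a near-identical neighbor, so its reads can be split between copies. *Cxcr5*, a chemokine receptor, had 472 and 390 counts against 63 and 99. *Cd36*, a fatty acid receptor, had 111 and 118 counts against 17 and 6, and *Il1rl2*, an IL-36 receptor chain, had 96 and 93 counts against 16 and 6. With 4 libraries this likeness rests mainly on the difference between the groups, and it is given as a description.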

How the data were processed

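RNA-Seq of tumor-infiltrating Tc1 and Tc9 cells was used, 2 libraries per group by the sample labels. The authors deposited for each library expected counts per gene, which are estimated and not normalized, and FPKM values scaled by gene length and library size. The submitters' processing notes name mm10, and the aligner and counter are not given in the sources used here. The tables used here end at different identifiers, and 3 have an incomplete last line that was dropped. A gene absent within the range of a table was taken as 0 counts. A table cut short does not sum to its depth, so depth came from the median ratio of count to FPKM, relative to Tc9 replicate 2, in genes with the same length and 500 counts or more in both libraries.

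Expected counts were rounded and tested two-sided with edgeR 4.0.16 (quasi-likelihood, R 4.3.3, TMM, filterByExpr at a minimum count of 10, Benjamini-Hochberg adjustment over all genes of a range). TMM factors were 0.990 and 0.983 for Tc1 and 1.01 and 1.02 for Tc9. The 3-library range used the same factors. Standard errors are the absolute log2 fold change divided by the root of the F statistic. Alternatives used DESeq2 1.42.0, limma 3.58.1 on log2(FPKM + 1) and log2(FPKM + 0.1), other scalings and filters, a replicate block and the omission of each library. The replicates of each group differed by more than sampling noise. Intervals and the floor hold counting error alone, because no molecular identifiers are stated and reads may be copies of 1 molecule.

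The 8 genes and all gene lists were chosen with earlier results of these data known. All 8 genes are described. From each list, genes past an adjusted p of 0.05 whose groups did not overlap are named, at most 8 a list, and the others are counted. In the replicate 2 libraries those past 2-fold with at least 10 counts are named, a rule added after the values were seen, as were other examples that did not pass. Of the marker lists, defining markers and those with the highest counts are named. Promoter sequences and gene positions are from RefSeq (GRCm38.p6).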

Additional observations from a re-analysis of the deposited data

How the results depend on the processing

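The fold changes of *Cd80*, *Cd86*, *Cd5* and *Cd6* stayed negative and that of *Ctla4* positive under every alternative run. Leaving out 1 library at a time gave log2 fold changes of -3.49 to -3.28 for *Cd80*, -1.81 to -1.27 for *Cd86*, -0.71 to -0.51 for *Cd5*, -0.55 to -0.28 for *Cd6*, 0.14 to 0.53 for *Ctla4* and -0.23 to 0.081 for *Cd28*, which changed sign without Tc9 replicate 2 (0.081). With a single library in a group, that library is assumed to vary like the other group. The same omissions gave 99 to 424 genes higher and 74 to 430 lower over all genes. The ranges were 0 to 1 higher and 0 to 1 lower for the other B7 and CD28 family genes, 0 to 3 and 0 to 2 for CD28 signalling, 0 to 1 and 0 to 1 for the restraints, and 0 to 3 and 2 to 4 for the CD28 targets. The limma fit on log2(FPKM + 1) gave -2.93 for *Cd80*. Without a filter on low counts *Cd6* kept -0.41 but lost its call (adjusted p = 0.0964, edgeR), the counts over all genes fell to 130 higher and 110 lower, and *Alcam* was lost, which left 0 called lower in its list. Over 3 libraries edgeR without a filter called 0 of 1784 genes (348 at an unadjusted p under 0.05) and so 0 of the restraints and 0 of the targets. A minimum of 50 counts gave 186 higher and 82 lower over that range, RLE scaling 177 and 112 (with 1 restraint lower), depth alone 240 and 90 (with 2 targets higher), DESeq2 97 lower and library sizes from the shared range 93 lower, against 116 and 42. The causes of these shifts were not tested. The replicate numbers share no stated animal or batch, and deviations of same-numbered libraries had a correlation of -0.0132 over 1207 genes. With a replicate block edgeR called 444 genes in place of 438, of which 406 were shared, and changed no call of the 6 genes (*Cd80* -3.39, not tested, *Cd86* -1.53, *Cd5* -0.61, *Cd6* -0.42, *Ctla4* 0.33, *Cd28* -0.08). Neither the block nor the omission of a library was run over 3 libraries, where the block leaves no residual degrees of freedom. For *Alcam*, *Cbl*, *Dok2*, *Ccnd2*, *Cdk6*, *Irf4*, *Ifng* and *Cd69*, 79 alternative values kept the call and 10 lost it, and no alternative was run for the cell type markers. Depth limits *Cd86*, *Il2* and *Cd40lg*, which had at most 41 counts in any library.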

Other observations

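CD28 adds to signals of the T cell receptor complex, whose genes are among the T cell markers. Of 7 such markers reached by 4 libraries, edgeR called 2 higher in Tc9 cells, 1 lower and 4 not, beside 17.4% higher and 16.7% lower over all genes. *Cd3e* had 3046 and 2758 counts in Tc1 cells and 3827 and 5743 in Tc9 cells (log2 fold change 0.73 with a standard error of 0.17, adjusted p = 0.0108, edgeR), and *Cd3g* 7015 and 7588 against 10944 and 9467 (0.49 with a standard error of 0.11, adjusted p = 0.00995). *Cd2*, which encodes another costimulatory receptor, was lower at 8703 and 9246 against 6784 and 6448 counts (-0.44 with a standard error of 0.10, adjusted p = 0.0107). The 7 markers together summed to 1819 and 1861 CPM in Tc1 cells and to 1963 and 1952 CPM in Tc9 cells.

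*Cd79b*, a B cell receptor chain, had 155 counts in the lone Tc1 library against 380 and 473 in Tc9 cells (log2 fold change 1.46, adjusted p = 0.032, edgeR, with the spread between Tc1 libraries not measured), whereas *Cd79a* had 7 and 8 counts against 12 and 10 and did not pass. Of the melanoma markers, *Pmel* had 70.0 counts in Tc1 replicate 2 and 116.5 in Tc9 replicate 2, *Tyr* had 6 and 12.9, *Mitf* had 6 in Tc1 replicate 2 and 7 and 5 in the Tc9 libraries, and 4 of the 7 were in no table.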
